A study of Homo sapiens with 3 samples.

Results

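Expression of the enzymes of the mevalonate pathway was compared between a pair of RNA libraries of A375 melanoma cells. The enzymes were taken by gene symbol: ACAT2, HMGCS1, MVK, PMVK, MVD, IDI1, FDPS, GGPS1 and FDFT1, which are 9 of the 20344 genes in the deposited tables. All 9 had a row in both tables. The set was chosen by earlier results of these data, namely the difference in FPKM between the libraries, so levels and differences are given as a description, with no test.

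A375 is an established human melanoma line that carries a mutant BRAF kinase. The series has 3 samples, and 2 of them, titled A375, Prop and A375-VR, Prop, were used, with 1 library each. They are called the A375 library and the A375-VR library after their titles. The third sample, with the title A375-VR, DMSO, was not used. The labels conflict on the first library: its title and cell line label name A375, while the extraction protocol, which is the same for every sample, names only A375-VR cells given either the solvent DMSO or 20 µM of propranolol, a beta-adrenergic receptor blocker, for 24 h. The series title speaks of vemurafenib resistance, and vemurafenib is an inhibitor of mutant BRAF, but the labels do not spell out VR or say how the A375-VR cells were derived. Both titles carry Prop, read here as propranolol, so by title the treatment was the same in both libraries. The protocol does not say how A375 cells were treated. Cell line, culture and library preparation therefore cannot be told apart in what follows, nor can treatment if the title of the first library is wrong. Replicates are lacking, as each group had a single library, and every interval below covers counting error only.

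Values are FPKM, a count corrected for the length of the gene and the size of the library. Levels can be compared between genes only as far as the gene lengths used are right. Whole reads worked out from the FPKM gave library totals of 17811339 and 16438482, and a median of 604.5 and 621 reads per gene among the 10761 genes that reached an FPKM of 1 in either library. Of 11 melanocyte and melanoma markers, 4 passed that filter, and the 11 summed to 124 FPKM in the A375 library against 216 in the other. These were SOX10 (65.3 and 149.6 FPKM), PRAME (46.6 and 48.5), S100B (3.72 and 12.6) and MITF, which was lower in the A375-VR library (6.47 and 3.47). The pigment cell enzyme gene TYR was at 0 in both, and MLANA had 0 and 0.0592 FPKM. None of the 3 endothelial or 4 leukocyte markers passed, and 2 of 5 fibroblast and 2 of 4 keratinocyte markers did. The fibroblast list summed to 4.80 and 6.72 FPKM, and the keratinocyte list to 47.8 and 59.5 FPKM. Most of the keratinocyte sum was KRT10 (44.9 and 56.0 FPKM). Of the others, KRT14 had 2.73 and 3.47 FPKM, KRT5 had 0.144 and 0.0567, and KRT1 was at 0 in both. The part of these marker differences in the results below was not tested.

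The mevalonate pathway turns acetyl-CoA into the isoprene units from which cells build cholesterol, dolichol, ubiquinone and the lipid anchors of RAS and other small GTPases. Its enzymes act in sequence, and the farnesyl diphosphate that FDPS makes is the branch point: FDFT1 commits it to squalene and sterols, and GGPS1 extends it to geranylgeranyl diphosphate. When membranes are low in sterol, SREBP transcription factors are released from the endoplasmic reticulum and, with the partner factors NF-Y and Sp1, switch on most genes of the pathway. NF-Y binds the sequence CCAAT.

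Promoters of 7 of the 9 genes were matched in RefSeq (table build GRCh38.p14), with 12 entries in all because some genes have several starts. Each entry runs from 250 bases before a start to 50 bases after it, and each had 1 exact match in GRCh37, whose coordinates are given. ACAT2 and FDFT1 had no entry. The sequences of HMGCS1, MVK, MVD and IDI1 are shown because these had the 4 largest differences between the libraries among the 7 genes with an entry, and that of PMVK because it had the smallest. Of the 2 entries of HMGCS1 and the 3 of IDI1, the one shown is that with the most CCAAT matches. Capitals mark CCAAT on either strand (ATTGG on the opposite strand) and, in MVK, a match to the core of a sterol regulatory element, TCACNCCA.

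HMGCS1, chr5:43313465-43313764, minus strand: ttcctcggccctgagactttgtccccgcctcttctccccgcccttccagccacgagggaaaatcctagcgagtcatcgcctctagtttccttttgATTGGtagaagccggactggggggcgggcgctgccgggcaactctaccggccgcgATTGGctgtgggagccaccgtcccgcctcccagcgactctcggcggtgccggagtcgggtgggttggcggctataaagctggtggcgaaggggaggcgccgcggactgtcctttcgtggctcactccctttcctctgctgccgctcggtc
MVK, chr12:110011349-110011648, plus strand: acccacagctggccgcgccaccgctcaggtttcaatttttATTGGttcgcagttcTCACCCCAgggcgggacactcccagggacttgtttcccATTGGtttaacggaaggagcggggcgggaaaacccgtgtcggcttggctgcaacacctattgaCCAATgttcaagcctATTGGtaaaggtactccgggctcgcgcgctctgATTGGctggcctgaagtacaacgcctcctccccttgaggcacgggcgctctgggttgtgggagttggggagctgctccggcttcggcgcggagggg
PMVK, chr1:154909146-154909445, minus strand: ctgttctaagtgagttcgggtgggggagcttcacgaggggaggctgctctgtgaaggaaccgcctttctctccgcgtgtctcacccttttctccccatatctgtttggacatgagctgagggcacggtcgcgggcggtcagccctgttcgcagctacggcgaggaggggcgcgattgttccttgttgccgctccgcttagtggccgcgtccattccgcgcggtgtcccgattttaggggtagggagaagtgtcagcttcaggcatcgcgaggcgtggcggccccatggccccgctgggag
MVD, chr16:88729450-88729749, minus strand: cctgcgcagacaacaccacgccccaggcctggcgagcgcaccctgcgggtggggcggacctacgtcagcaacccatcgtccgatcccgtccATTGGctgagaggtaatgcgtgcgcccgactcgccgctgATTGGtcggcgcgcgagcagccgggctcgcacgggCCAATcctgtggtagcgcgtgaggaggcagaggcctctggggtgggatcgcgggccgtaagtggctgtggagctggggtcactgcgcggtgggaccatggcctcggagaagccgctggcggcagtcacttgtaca
IDI1, chr10:1094777-1095076, minus strand: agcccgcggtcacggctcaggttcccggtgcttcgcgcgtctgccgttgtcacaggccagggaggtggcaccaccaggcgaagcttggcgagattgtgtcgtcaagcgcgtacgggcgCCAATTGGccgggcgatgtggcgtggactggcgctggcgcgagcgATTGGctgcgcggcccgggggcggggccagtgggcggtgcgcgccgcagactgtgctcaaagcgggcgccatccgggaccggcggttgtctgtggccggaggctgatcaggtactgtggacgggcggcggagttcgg

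The MVK promoter held 5 matches to CCAAT, and MVD and FDPS held 3 each. The 2 entries of HMGCS1 held 2 and 0. The 3 entries of IDI1 held 3, 2 and 0, and of the 3 entries of GGPS1 only the second held any, with 1. In the first entry of IDI1, the stretch CCAATTGG was counted once on each strand, so these matches overlap. Matches over all promoters were counted in the same way. PMVK held none. Counted by entry, 7 of the 12 held at least 1 match and 4 at least 3, and over all 35116 promoters of the same length in the table these shares were 34.6% and 3.26%. The 12 entries are not independent, since entries of a gene can overlap. The sterol regulatory core TCACNCCA (TGGNGTGA on the other strand) was found in 1 of the 12 entries, that of MVK, as TCACCCCA, and in 3.95% of all promoters. The Sp1 motif GGGCGG (or CCGCCC) was in 11 of the 12 entries and in 45.0% of all promoters, and the E-box CACGTG in 0 of the 12 and in 7.26%. These are matches of letters in a short window. They do not show binding, and the absence of a match says nothing about a factor.

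All 9 genes had a higher FPKM in the A375-VR library, from 1.29-fold for PMVK to 19.7-fold for HMGCS1. A gene was called 2-fold apart when its log2(FPKM + 1) differed by at least 1 between the libraries, a scale that understates the change of low genes, and 7 of the 9 were 2-fold higher and none 2-fold lower. Over all 10761 genes past the filter, 338 were 2-fold higher (3.14%) and 66 were 2-fold lower (0.613%). Scaling by a trimmed mean of log ratios gave 248 higher genes and 116 lower ones, and centring the ratios on their median gave 273 and 101. The median difference was 2.35 for the 9 genes and 0.10 for all genes, and 60.3% of all genes had a difference above 0. Since the genes were chosen with this contrast known, these shares place them among the others and carry no test.

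**Figure D1:**
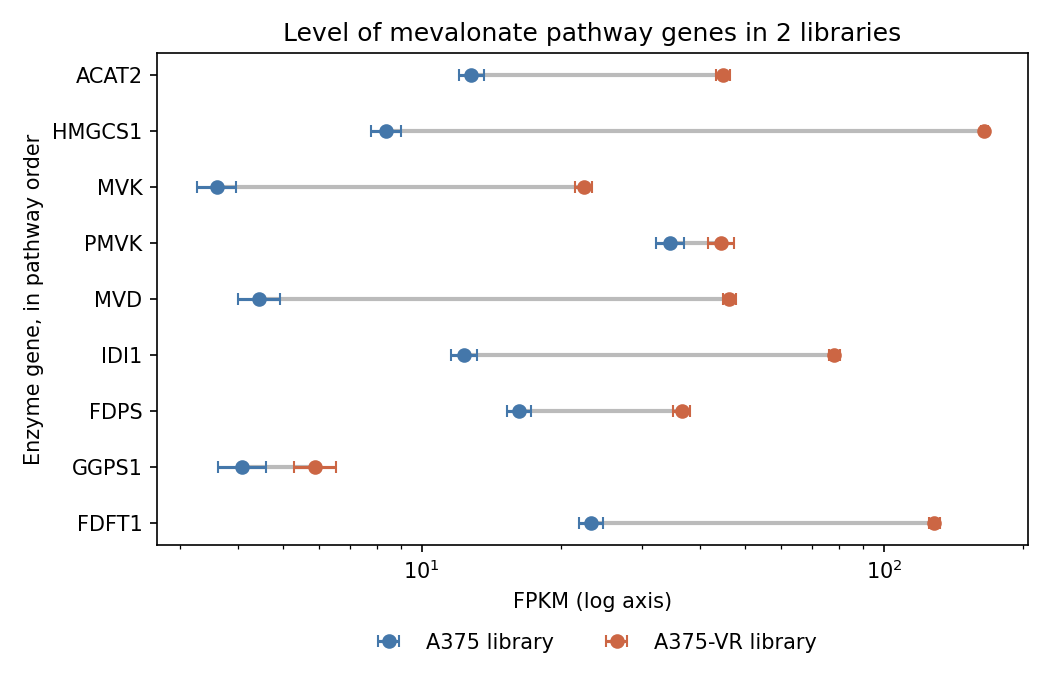
FPKM of the 9 enzyme genes (log axis) in the A375 library (blue) and the A375-VR library (orange), from the first step of the pathway at the top to the last, with bars for 95% counting intervals. The orange point lies to the right of the blue one in all 9 genes, by the most for HMGCS1 (8.37 and 165 FPKM) and the least for PMVK (34.5 and 44.5 FPKM).

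The first steps make HMG-CoA from acetyl-CoA. ACAT2 (Entrez 39, chr6:160183077-160200144 of GRCh37, plus strand) joins acetyl-CoA units in the cytosol, and had 12.8 FPKM in the A375 library against 44.9 in that of A375-VR cells, which is a fold of 3.51 (95% counting interval 3.27 to 3.78). HMGCS1 (Entrez 3157, chr5:43287572-43313614, minus strand), the cytosolic HMG-CoA synthase, had 8.37 and 165 FPKM, from 701 and 12759 reads. Its difference of 4.15 on the log2(FPKM + 1) scale ranked 1 among all 10761 genes past the filter, and ACAT2 ranked 67. HMGCS1 was thus below ACAT2 in the A375 library, at 0.654 of its level, and 3.67 times its level in the A375-VR library. The next step, the reduction of HMG-CoA to mevalonate, is not analysed here.

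The enzymes from mevalonate to isopentenyl diphosphate differed by unlike amounts. MVK (Entrez 4598, chr12:110011060-110035930, plus strand) adds the first phosphate to mevalonate, and had 3.60 and 22.4 FPKM, a fold of 6.23 (5.61 to 6.93). PMVK (Entrez 10654, chr1:154897216-154909195, minus strand) adds the second phosphate, and had 34.5 and 44.5 FPKM, a fold of 1.29 (1.17 to 1.42). MVD (Entrez 4597, chr16:88718343-88729569, minus strand), which removes the carboxyl group, had 4.45 and 46.3 FPKM. Its fold was 10.4 and its difference ranked 7 of all genes, where MVK ranked 20 and PMVK 2581. PMVK was the highest of the 9 genes in the A375 library, at 9.60 times the level of MVK and 7.75 times that of MVD. In the A375-VR library it was at 1.99 times MVK and 0.961 times MVD, so the levels of these 3 consecutive enzymes lay closer together there.

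IDI1 (Entrez 3422, chr10:1085092-1095059, minus strand), which interconverts both isoprene units, had 12.4 and 78.2 FPKM, a fold of 6.33 (5.91 to 6.79). FDPS (Entrez 2224, chr1:155278539-155290457, plus strand), the synthase of farnesyl diphosphate, had 16.2 and 36.5 FPKM, a fold of 2.25 (2.09 to 2.42). Its difference of 1.12 was nearest to the 2-fold limit of the 7 that passed it, and was 0.98 when the libraries were scaled by a trimmed mean of log ratios, which left 6 of 9 genes 2-fold higher. The ratio of IDI1 to FDPS was 0.761 and 2.14.

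The enzymes on either side of the branch differed in size of change. FDFT1 (Entrez 2222, chr8:11653082-11696904, plus strand), squalene synthase on the sterol side, had 23.3 and 129 FPKM, a fold of 5.52 (5.17 to 5.90). GGPS1 (Entrez 9453, chr1:235490665-235507847, plus strand), on the geranylgeranyl side, had 4.08 and 5.88 FPKM from 277 and 368 reads, a fold of 1.44 (1.23 to 1.69). The ratio of FDFT1 to GGPS1 was 5.70 and 21.9, and the intervals of their folds do not overlap. GGPS1 and PMVK were the 2 genes under 2-fold. Both intervals lie above 1 and above the median fold of all genes, 1.08. The share of all genes whose intervals do so is not given here, so this does not set the pair apart. By difference GGPS1 ranked 2016 and PMVK 2581 of 10761 genes, with 81.3% and 76.0% of genes at a smaller difference. The differences of both genes stayed above 0 with the trimmed mean, at 0.31 for GGPS1 and 0.21 for PMVK.

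Among the 36 pairs of the 9 genes, the intervals of the fold overlapped in 3: MVK with IDI1, MVK with FDFT1, and PMVK with GGPS1. The other 33 pairs differed in fold by more than counting error. The same count was not made for pairs of other genes, so it does not set the 9 genes apart. How much folds of single genes vary between repeated cultures is not known from 1 library per group.

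**Figure D2:**
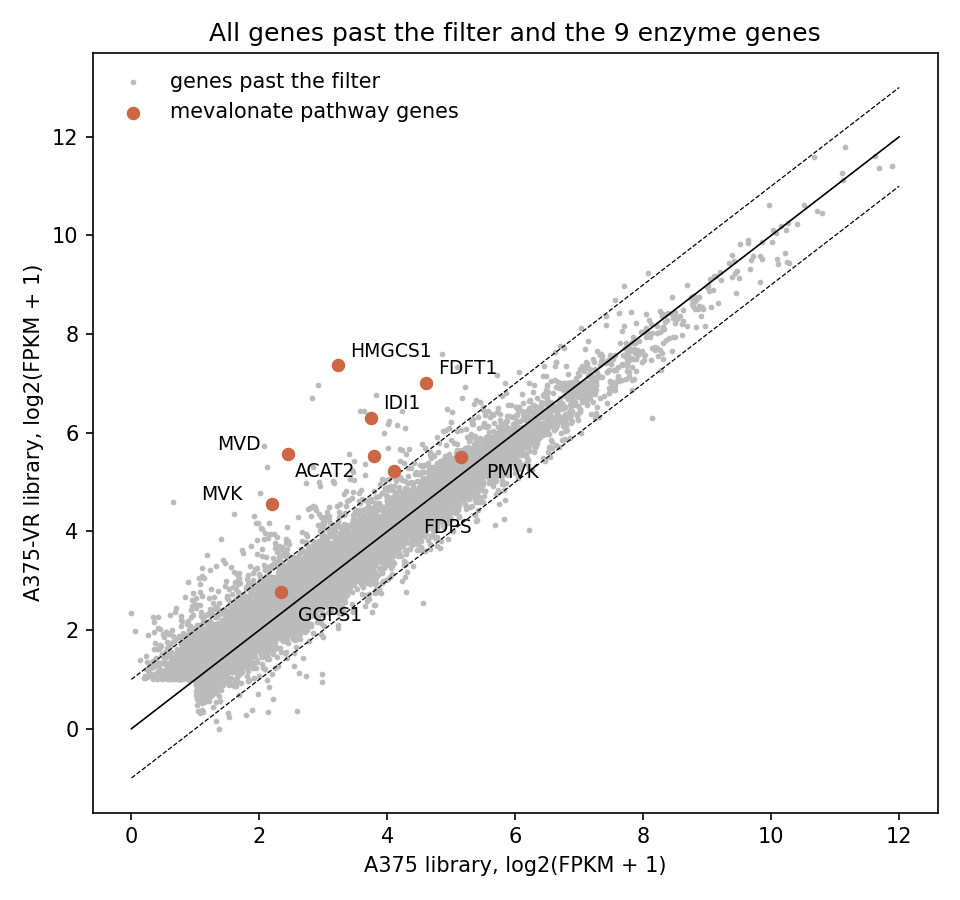
log2(FPKM + 1) of each gene past the filter in the A375 library (x axis) and the A375-VR library (y axis), with the 9 enzyme genes in orange, the line of equality solid and the 2-fold limits dashed. HMGCS1, MVD, IDI1, FDFT1, MVK, ACAT2 and FDPS lie above the upper dashed line, and PMVK and GGPS1 lie between the solid and the upper dashed line.

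The order of the levels was not the same in the libraries. In the A375 library it ran PMVK (34.5 FPKM), FDFT1 (23.3), FDPS (16.2), ACAT2 (12.8), IDI1 (12.4), HMGCS1 (8.37), MVD (4.45), GGPS1 (4.08) and MVK (3.60). Counting intervals overlapped between ACAT2 and IDI1, between MVD and GGPS1, and between GGPS1 and MVK, so the order within these pairs is not set at this depth. In the A375-VR library it ran HMGCS1 (165 FPKM), FDFT1 (129), IDI1 (78.2), MVD (46.3), ACAT2 (44.9), PMVK (44.5), FDPS (36.5), MVK (22.4) and GGPS1 (5.88). There the neighbours MVD and ACAT2, and ACAT2 and PMVK, overlapped. HMGCS1 moved from place 6 to place 1 and PMVK from place 1 to place 6, while FDFT1 held place 2 in both. The order, and ratios and shares between genes, also rest on the gene lengths behind the FPKM. The smallest lengths that gave whole reads were 2601 bases for FDFT1 and 4299 for ACAT2, against 5080 and 2639 in GENCODE. Lengths matched for MVD, FDPS and GGPS1 and differed for the other genes. The order at GENCODE lengths was not worked out, and folds of a gene do not depend on its length. Against all genes past the filter, HMGCS1 went from rank 4932 by level in the A375 library to rank 202 in the other, and GGPS1 from 7136 to 6469.

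The summed level of the 9 genes was 119.7 FPKM in the A375 library against 572.4 in the other, or 0.0451% and 0.219% of the FPKM of all genes. HMGCS1 gave 34.6% of the gain, FDFT1 23.3% and IDI1 14.5%, against 0.396% for GGPS1. The highest gene was 9.60 times the lowest in the A375 library, against 28.1 times in the other.

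**Figure D3:**
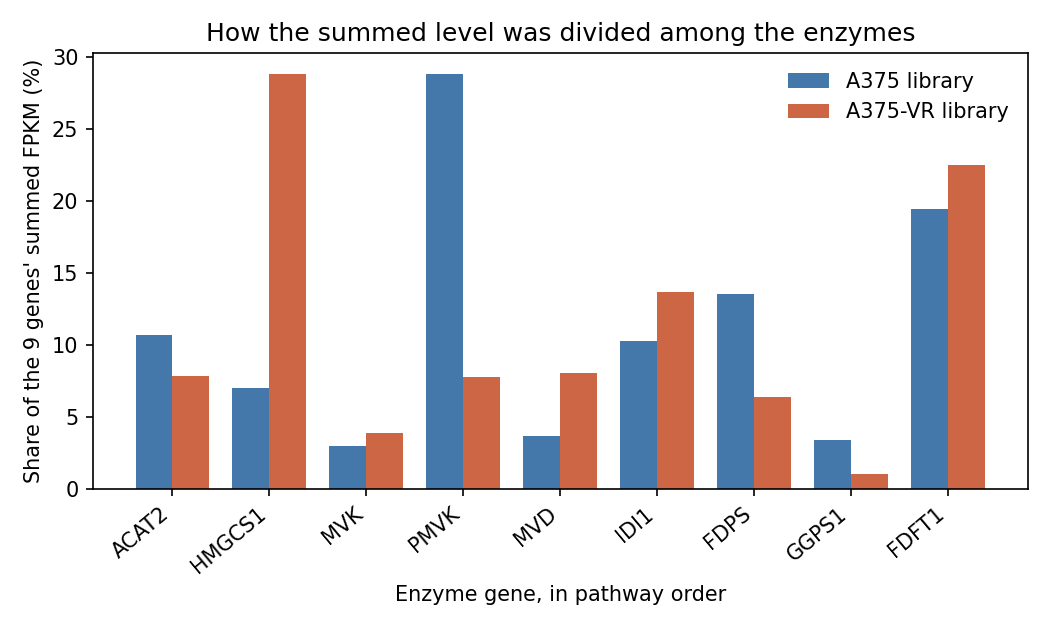
Share of the summed FPKM of the 9 enzyme genes that each gene held (%), in the A375 library (blue) and the A375-VR library (orange). PMVK held the largest share in the A375 library (28.8%) and HMGCS1 in the A375-VR library (28.8%), where PMVK held 7.77%.

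Genes around the pathway were counted from lists chosen with earlier results of these data known, so their counts are also a description. Over all genes past the filter, 3.14% were 2-fold higher and 0.613% were 2-fold lower. Upstream, 4 of the 8 genes past the filter in a list of acetyl-CoA supply, ketone body enzymes and paralogs were 2-fold higher and none 2-fold lower, with a median difference of 0.89. These 4 act in the supply of acetyl or acetoacetyl units: ACSS2, which activates acetate (3.35 and 38.5 FPKM), SLC25A1, the mitochondrial citrate exporter (40.9 and 100.9), ACLY, which cleaves citrate (56.1 and 127), and AACS, which activates acetoacetate (3.42 and 8.76). Downstream, 9 of 11 enzymes from squalene to cholesterol were 2-fold higher and none 2-fold lower, with a median difference of 2.25. MSMO1, a sterol methyl oxidase, had 6.10 and 104 FPKM, and SQLE, which oxidises squalene and takes the product of FDFT1, had 11.4 and 86.5. LSS, DHCR7, NSDHL, HSD17B7, EBP and SC5D were between 2.73-fold and 8.71-fold higher.

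Enzymes that use isoprenoids outside sterol synthesis were counted in the same way. None of 22 was 2-fold apart in either direction, which is near the share over all genes (3.14% higher and 0.613% lower). Their median difference was -0.21, with 8 genes above 0 and 14 below. Over all genes past the filter the median was 0.10, and 60.3% had a difference above 0. The median of the list stayed below 0 under each scaling tried, from -0.31 with the trimmed mean to -0.21 after rescaling to a common sum. PCYOX1, which breaks down prenylcysteines, had 10.3 and 20.4 FPKM, and FNTB, the beta subunit of farnesyltransferase, had 2.29 and 3.93. CHML, a Rab escort protein, had 15.1 and 7.16 FPKM, and PDSS1, which builds the ubiquinone tail, had 15.6 and 10.1. CHML was past the 2-fold limit on the lower side with each other scaling and with a pseudocount of 0.1, where no further gene of the list was 2-fold apart.

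In the SREBP machinery, 2 of 7 genes were 2-fold higher and none lower, with a median difference of 0.44. The shares over all genes were 3.14% higher and 0.613% lower. The 2 higher genes were INSIG1, which retains the SREBP complex in the endoplasmic reticulum (6.54 and 123.6 FPKM), and SREBF2, which encodes SREBP2 (11.6 and 40.1). INSIG2 (2.87 and 4.90 FPKM) and the site-1 protease gene MBTPS1 (11.6 and 16.1) were under 2-fold.

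**Figure D4:**
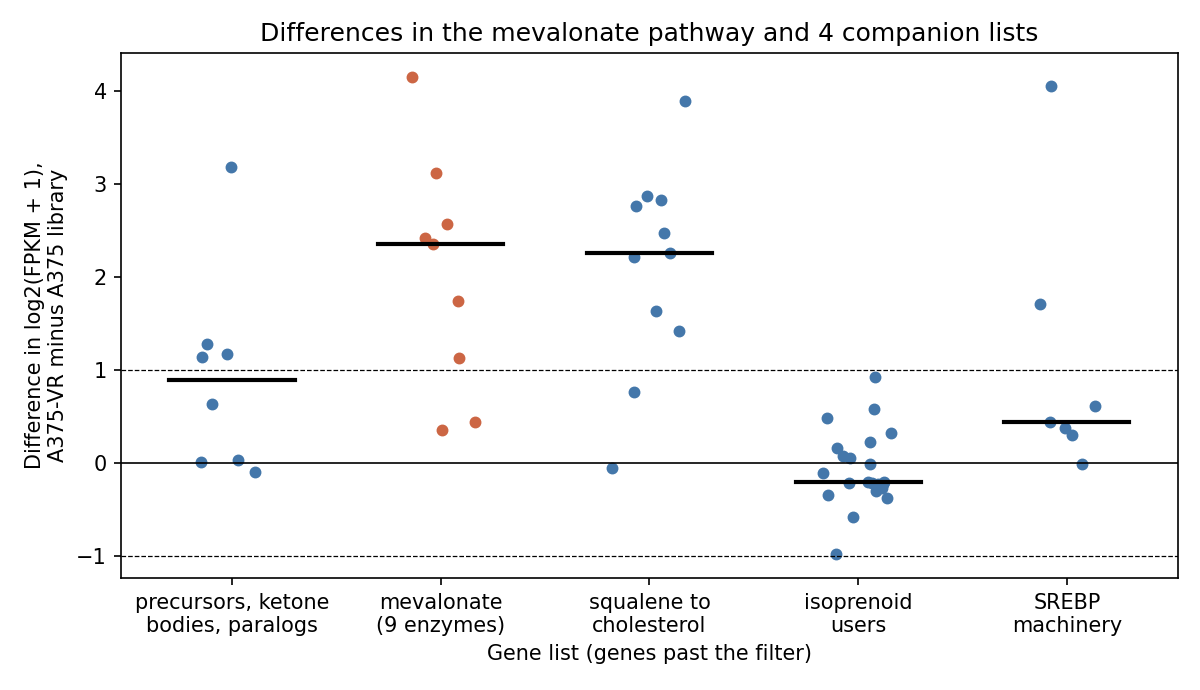
Difference in log2(FPKM + 1), A375-VR minus A375 library, for each gene past the filter (points) in the 9 mevalonate enzymes (orange) and in 4 companion lists (blue), with medians as black bars and the 2-fold limits dashed. The medians are 2.35 for the mevalonate enzymes and 2.25 for squalene to cholesterol, against -0.21 for the isoprenoid users.

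The genes whose levels in both libraries lay nearest to the median point of the 9 enzymes, by Euclidean distance of log2(FPKM + 1) over the 2 libraries, were SREBF2, IL24, TUBA1A, SPP1 and CAPS, at distances from 0.18 to 0.39. SREBF2 was 3.45-fold higher, IL24 4.15-fold, TUBA1A 3.35-fold, SPP1 4.85-fold and CAPS 2.98-fold. With a pair of libraries, likeness means only a like level and a like fold.

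Some of the 9 genes share sequence with others, and the use of strand in counting is not given in the sources used here. In GENCODE release 44 on GRCh37, ACAT2 shares 454 exon bases with TCP1, a chaperonin subunit gene on the opposite strand, which had 108 and 73.4 FPKM and so a difference in the opposite direction to that of ACAT2. ACAT2 also shares 133 exon bases with the opposite-strand gene SOD2 (3.01 and 2.56 FPKM). MVK and MMAB, a gene of cobalamin metabolism, start 325 bases apart on opposite strands and share 225 exon bases, and MMAB had 4.45 and 13.1 FPKM, a fold of 2.94 (2.65 to 3.26). GGPS1 shares 1422 exon bases with an unnamed protein-coding gene on the same strand, which the strand of a read cannot separate and which was not analysed here. It also shares 138 with ARID4B on the opposite strand (5.15 and 6.14 FPKM). IDI1 starts 419 bases from WDR37 (3.69 and 5.93 FPKM). FDPS has 8 named pseudogenes and IDI1 has 3, so their values carry a further uncertainty from reads shared with copies. Noncoding genes on the opposite strand share 2497 exon bases with HMGCS1, 693 with FDPS, 643 with IDI1 and 217 with FDFT1, and were not analysed here.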

How the data were processed

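Messenger RNA was sequenced with a stranded TruSeq kit as pairs of 150-base reads on a HiSeq 2000, and TopHat 1.3.3 placed the reads on GRCh37, per the series design text. The deposited values are FPKM, made by the authors with a counting tool and annotation that the labels do not name. Zeros are kept.

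The members and gene lists were chosen with earlier results of these data known. Genes that reached an FPKM of 1 in either library were kept, and differences were taken on log2(FPKM + 1), with folds as plain FPKM ratios. Whole reads were worked out from the FPKM: the ratio of the totals from the most frequent exact ratio of FPKM between the libraries, and their common factor as the smallest of 12 tried at which the most of 3000 genes had whole reads at their GENCODE length (19.9%, against at most 2.23% for factors that are not multiples of it). Reads are the smallest whole numbers that give a gene's FPKM, so intervals may be too wide. Intervals are 95% exact Clopper-Pearson for folds and exact Poisson for levels, and neither covers variation between cultures. The ratio of totals, the 2-fold call, whole reads at known totals and the fold intervals were tested on simulated data (Python 3.11.15, numpy 2.4.6, scipy 1.17.1). The choice of the common factor was not tested in this way. Named genes were the 9 enzymes, the 4 largest differences of each list with any gene 2-fold apart, the 5 genes nearest to the enzymes' median point, and genes overlapping an enzyme gene or starting within 1000 bases of it. Some genes that this rule takes are not reported here. Alternatives were a pseudocount of 0.1, other scalings, no filter and a filter at FPKM 5.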

Additional observations from a re-analysis of the deposited data

How the results depend on the processing

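With 1 library per group no replicate could be left out. No paired analysis was possible because each group had 1 library. All 9 enzyme genes kept a difference above 0 under each of the 6 alternatives. In each, 7 of 9 stayed 2-fold higher except with the trimmed mean of log ratios (6, without FDPS). A change of filter can drop a gene but cannot change its difference. Only the pseudocount and the scalings therefore bear on the differences of single genes. The median of the 9 ranged from 2.21 with the trimmed mean to 2.48 after rescaling to a common sum. The trimmed mean moved the median of all genes from 0.10 to -0.03, so differences near 0 can be read relative to that shift. Counts over all genes moved more: 689 were 2-fold higher and 140 lower with a pseudocount of 0.1, and 624 and 104 after rescaling to a common sum, both settings in which the pseudocount is small beside the values. Lower genes numbered 101 after centring on the median ratio and 116 with the trimmed mean, which lower all values of the A375-VR library. Depth limits the order of enzymes with close levels, and GGPS1 rested on the fewest reads of the 9.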

Other observations

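Paralogs and mitochondrial relatives of the enzymes were measured in the same libraries. ACAT1, the mitochondrial thiolase, had 14.3 and 14.4 FPKM, against 12.8 and 44.9 for its cytosolic relative ACAT2. IDI2, the paralog of IDI1, was listed at 0 in both libraries. Of the ketone body enzymes, OXCT1 had 16.0 and 14.9 FPKM and BDH1 2.33 and 2.40. These genes were named after their values were seen, and the differences between paralogs were not tested.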
